A study of Caenorhabditis elegans with 4 samples.

Results

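The peaks described here are the regions of chromosome V bound by AMA-1 (the largest RNA polymerase II subunit) in mixed-stage embryos of the nematode Caenorhabditis elegans. The members are all peaks that carry V in the chromosome column of 3 deposited lists. Chromosome V holds 2226 of the 15152 peaks of the series-wide list (14.7%), which is the main set. It also holds 461 of the 2838 peaks of the replicate 1 list (16.2%) and 429 of the 2843 peaks of the replicate 2 list (15.1%). No measured value entered the choice.

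The series consists of 2 AMA-1 ChIP libraries and 2 input DNA libraries. ChIP-seq sequences the DNA that an antibody pulls down with its protein, and a peak caller then lists the stretches where that DNA is enriched. The antibody (AMA-1 SDQ2358) was an affinity-purified rabbit polyclonal, the strain was N2 with a genotype given as wild type, and males and hermaphrodites were mixed. The temperature was 20 degrees Celsius. Every library shares a growth protocol named for RNAi and the tag RiIMB1 in its title, whose meaning is not spelled out in the labels, so no untreated library stands beside them. Peak lists were used for the ChIP replicates only. Whether separate cultures gave the replicates is not stated in the labels, and their differences may be technical. The lists hold no genes, and the stage was not checked against marker genes.

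RNA polymerase II transcribes protein-coding genes and many small RNAs. It gathers at promoters, moves through gene bodies and pauses near their ends, so a strongly transcribed gene or a run of neighbouring genes can give a wide bound stretch. Nematode autosomes have a central region, where conserved and widely expressed genes are common, and 2 arms with more repeats and more fast-evolving gene families. Chromosome V is known for large families of chemoreceptor genes, which act in few neurons, and it also carries histone gene clusters and the tandem array of genes for 5S ribosomal RNA and the SL1 spliced leader. None of these genes was assigned to a peak here. Coordinates are those of WormBase WS220, counted from 1. The score of a peak is the authors' own value without a stated unit, comparable only within one list. In the replicate lists no score on V exceeded 3100, a value called the ceiling here. It was reached by 48 peaks of V in replicate 1 and 36 in replicate 2. Other chromosomes held scores up to 3233.06 in each replicate list, and their shares at the ceiling count all scores of 3100 or more.

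Peaks on V were sparser than on most chromosomes and, over the whole series-wide list, similar to the rest in width and score. The series-wide list held 106.7 peaks per Mb on V, against 163.04 per Mb on the other 5 chromosomes pooled, a ratio of 0.654. Only X was sparser, with 85.4 per Mb, and the next above V was IV with 156.2. Replicate 1 gave 22.1 peaks per Mb on V and 29.98 on the others. Replicate 2 gave 20.6 on V and 30.4 on the others. The covered share of the chromosome was 8.38% on V and 12.8% on the other 5 in the series-wide list, and the ratio, 0.657, was close to that of the counts. Widths were similar, with a series-wide median of 360 bp (quartiles 216 and 700 bp) on V and 342 bp (quartiles 213 and 683 bp) on the others. Median scores were 5.92 on V and 5.86 on the others. Series-wide peaks in both replicates had a median width of 755 bp on V and 676 bp on the others, at most 722 bp on any of them. Their median score was 10.78 on V and 9.54 on the others, at most 9.99 on any of them. In the replicate lists the median score was lower on V in replicate 1 (261.1 against 278.3) and higher in replicate 2 (228.1 against 221.1). V had 223 peaks among the top 10% of series-wide scores, which were 10.02% of its members (95% Wilson interval 8.84 to 11.3%), against a background of 10% over all peaks. These are descriptions without a test, because 2 libraries of 1 condition leave no samples to compare, and densities were not adjusted for genes per chromosome.

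The replicates supported the stronger peaks of V and often not the weaker ones. Of the 2226 series-wide peaks, 831 (37.3%, interval 35.3 to 39.4%) had a partner in both replicate lists, against a background of 38.7% over all chromosomes. A further 587 (26.4%, interval 24.6 to 28.2%) were in replicate 1 alone, where the background is 23.0%. In replicate 2 alone there were 264 (11.9%), with a background of 12.2%. The other 544 (24.4%, interval 22.7 to 26.3%) were in neither, where the background is 26.2%. The shares on V thus lay near those of the whole series, except for a higher share in replicate 1 alone, a difference that was not tested. The 831 peaks held 69.5% of the series-wide bases of V and had a median width of 755 bp, whereas the 544 held 8.57% and had a median of 222 bp. In the lowest 10% of V by score, 15.2% of 223 peaks were in both replicates (interval 11.1 to 20.6%), and in the highest 10% the share was 92.4% of 223 (interval 88.1 to 95.2%). Among 10 classes of equal size by score, the share stayed between 15.2% and 24.7% over the lowest 6, which end at a score of 7.14, and was 38.7%, 54.3% and 69.4% in the next 3. How the replicates entered the series-wide list is not stated, so its score and the replicate support may not be independent. A wider peak also has more room for an overlap. The median width of peaks in both replicates was 229 bp in the lowest 10% and 2558.5 bp in the highest. These shares by score are given for V only, so they are not shown to be particular to V.

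**Figure D1:**
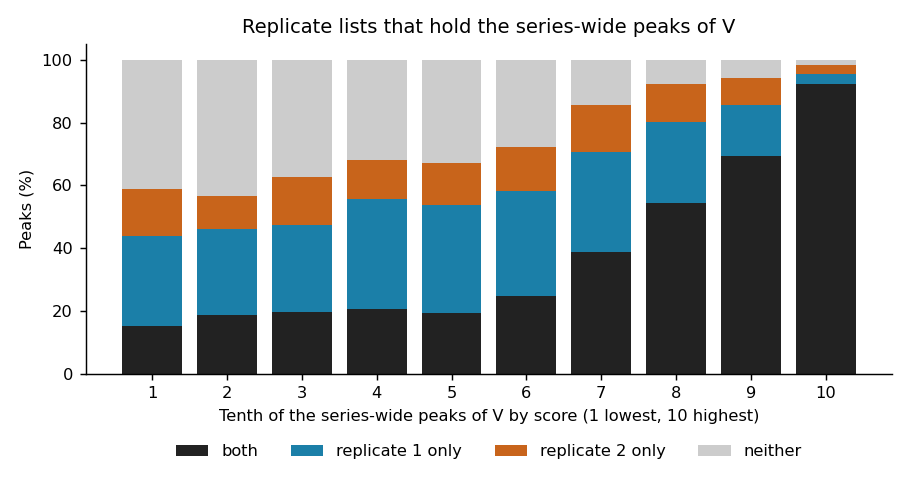
Stacked bars give, for each 10% of the 2226 series-wide peaks of V by score, the percent that overlapped a peak in both replicate lists, in 1 of them or in neither. The share in both is 15.2% in the lowest and 92.4% in the highest class.

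Between the replicates themselves, 322 of the 461 replicate 1 peaks of V (69.8%, interval 65.5 to 73.9%) overlapped a replicate 2 peak, with a background of 71.8%. In the other direction 338 of 429 (78.8%, interval 74.7 to 82.4%) did, with a background of 77%. The median width in replicate 1 was 4038.5 bp for shared and 1852 bp for unshared peaks, and in replicate 2 it was 3312 and 1952 bp. In bases, both replicates covered 1.42 Mb of V, which is 68.1% of what replicate 1 covered and 80.5% of what replicate 2 covered. Replicate 1 alone covered 0.665 Mb and replicate 2 alone 0.342 Mb. Across 241 pairs that overlapped one to one, the median distance between starts was 194 bp and between ends 230 bp, and Spearman's rho was 0.73 for scores and 0.81 for widths. These points share 2 libraries and are neighbours on 1 chromosome, so the correlations are descriptions.

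The left, centre and right parts, each 6.96 Mb long, differed in number, and the centre had the fewest peaks. The division into 3 equal lengths ends the left part at 6956832 and the centre at 13913664, and the length was taken up to the last peak end at 20870496. It is not the genetic division into arms and centre. Series-wide peaks numbered 805 on the left, 605 in the centre and 816 on the right, or 115.7, 86.96 and 117.3 per Mb. The outer parts together were thus 1.34 times as dense as the centre (interval 1.22 to 1.47, counting error only). Replicate 1 had 173, 116 and 172 peaks in the same order and replicate 2 had 144, 120 and 165, so the ratio of outer parts to centre was 1.49 and 1.29. On the other chromosomes the series-wide ratio lay between 1.3 on X and 1.41 on I, so V was not outside their range.

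Peaks at the score ceiling had another order. Of the replicate 1 peaks, 8 of 173 reached the score ceiling on the left (4.62%, interval 2.36 to 8.86%), 21 of 116 in the centre (18.1%, interval 12.2 to 26.1%) and 19 of 172 on the right (11.05%, interval 7.19 to 16.6%). For replicate 2 they were 3 of 144 (2.08%, interval 0.711 to 5.95%), 18 of 120 (15.0%, interval 9.70 to 22.5%) and 15 of 165 (9.09%, interval 5.59 to 14.5%). In each replicate the left part had the lowest share and the centre the highest, and the right part lay between them. The intervals cover counting error only and treat neighbouring peaks as independent, so they are no test of this order. The background over all chromosomes is 10.1% at the ceiling in replicate 1 and 6.86% in replicate 2. On the other 5 chromosomes pooled, the outer parts had 9.27% and the centre 12.2% at the ceiling in replicate 1, and 6.01% and 8.08% in replicate 2. On V the outer parts had 7.83% and the centre 18.1% in replicate 1, and 5.83% and 15.0% in replicate 2. Whether the contrast on V differs from that of the other chromosomes was not tested.

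**Figure D2:**
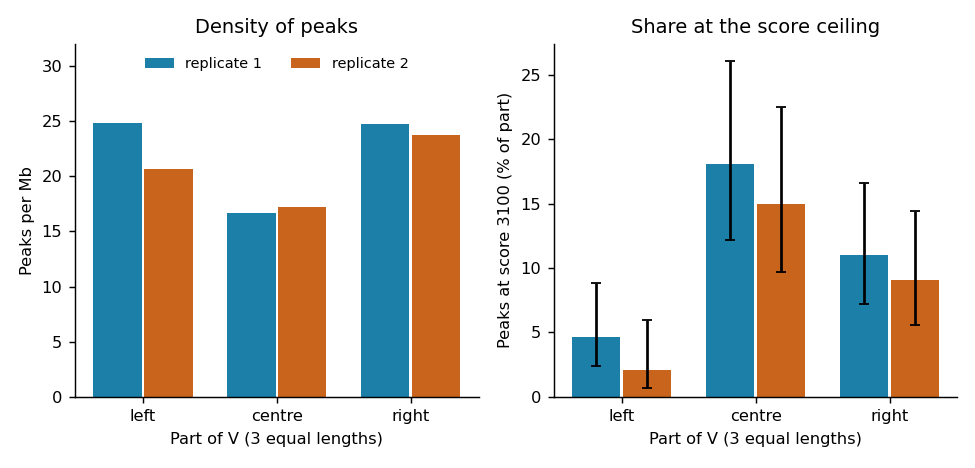
Bars give the number of peaks per Mb (left panel) and the percent of peaks at the score ceiling of 3100 with 95% Wilson intervals (right panel) for the left, centre and right parts of V in replicates 1 and 2. The centre has the fewest peaks, 16.7 and 17.2 per Mb, and the largest share at the ceiling, 18.1% and 15.0%.

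In the series-wide list the centre was prominent by number among the 20 best peaks, and not by number among the best 10%. Of its 20 best-scoring peaks on V, 1 lay on the left, 12 in the centre and 7 on the right. For the 10% of V with the best scores the counts were 72, 56 and 95, so the centre held 25.1% of them (interval 19.9 to 31.2%), near its 27.2% of all peaks (interval 25.4 to 29.1%). Within this 10% the centre had the highest median score, 42.0, against 29.7 on the left and 32.4 on the right. Its median width there, 3825 bp, was also the largest, against 1874 bp on the left and 2532 bp on the right. Peaks of this 10% covered 2.81% of the left part, 3.55% of the centre and 4.50% of the right part. All series-wide peaks together had a median score of 6.06 in the outer parts, against 5.67 in the centre. In replicate 1 the median score was 204.8 on the left, 251.6 in the centre and 309.5 on the right, and in replicate 2 it was 195.5, 218.6 and 286.96. Among the peaks shared between replicates the order was another, with medians of 508.8, 378.2 and 609.6 from left to right in replicate 1, and 284.6, 261.6 and 356.96 in replicate 2. The right part thus had the highest median score in each of these replicate sets, and whether the left part or the centre came next depended on the set. For series-wide peaks in both replicates the left part was highest, with medians of 12.2, 9.42 and 10.7. Series-wide peaks covered 8.03% of the left part, 7.29% of the centre and 9.83% of the right part.

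In replicate 1 the left part had the lowest share of peaks found in replicate 2. It was 63.0% there (109 of 173, interval 55.6 to 69.8%), against 75.9% in the centre (88 of 116, interval 67.3 to 82.7%) and 72.7% on the right (125 of 172, interval 65.6 to 78.8%). The replicate 2 peaks were shared at 79.9%, 75.8% and 80.0%. Of the series-wide peaks on the left, 31.2% were in replicate 1 alone and 11.1% in replicate 2 alone. Within the left part, the excess of replicate 1 over replicate 2 lay largely between 2 and 5 Mb. It had 25 peaks and replicate 2 had 12 from 2 to 3 Mb, 14 and 9 from 3 to 4 Mb, and 41 and 30 from 4 to 5 Mb. From 0 to 1 Mb the counts were 31 and 26, and from 1 to 2 Mb they were 30 and 28. They were 17 and 19 from 5 to 6 Mb, and 15 and 20 from 6 to 7 Mb. In the last, incomplete bin at the other end of V they were 30 and 20. The intervals of the 3 parts overlap, and the depth of the libraries is unknown.

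Along V in bins of 1 Mb, the 20 complete bins held a median of 96 series-wide peaks, with a range of 54 to 186. The fullest was 4 to 5 Mb, with 186 peaks that covered 14.4% of it, followed by 0 to 1 Mb with 155 and 1 to 2 Mb with 154. Directly beside the fullest bin lay the emptiest, 3 to 4 Mb, with 54 peaks over 2.98% of it, and the next emptiest were 5 to 6 Mb with 68 and 15 to 16 Mb with 74. The same bin was the fullest in both replicates, with 41 peaks in replicate 1 and 30 in replicate 2, and 3 to 4 Mb was the emptiest in replicate 2 and, tied with 7 to 8 Mb at 14 peaks, in replicate 1. The centre was even, and its complete bins from 7 to 13 Mb held 76 to 96 series-wide peaks. The last, incomplete bin held 151. Replicate support also varied, and 57.9% of the 114 peaks from 17 to 18 Mb were in both replicates, against 21.1% of the 109 from 2 to 3 Mb. Over the 20 bins, counts of the replicates had a Spearman's rho of 0.77, a description of bins that share their libraries.

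**Figure D3:**
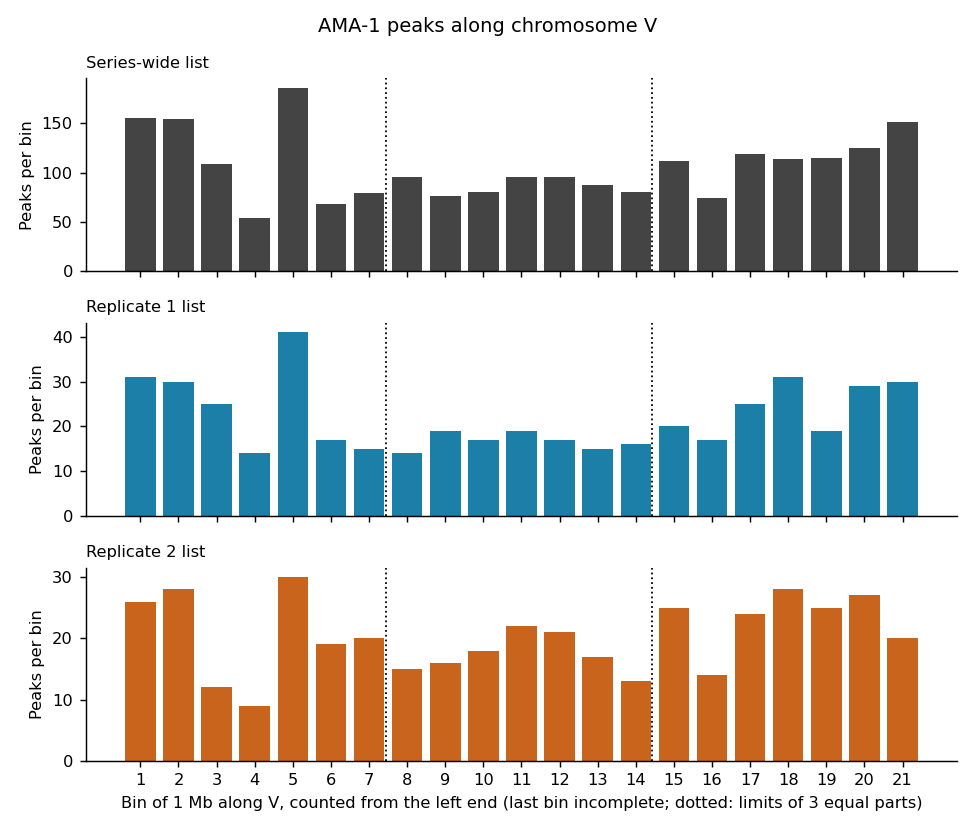
Bars count peaks by midpoint in bins of 1 Mb from the left end of V in the series-wide (top), replicate 1 (middle) and replicate 2 (bottom) lists, and dotted lines limit 3 equal parts. Bin 5 is the fullest in each list, with 186, 41 and 30 peaks, and bin 4 beside it holds 54, 14 and 9.

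At a finer scale the peaks of V were spread unevenly. Of 208 complete bins of 100 kb, the fullest 20 held 30.0% of the series-wide peaks, whereas the fullest 10% of bins held 19.8 to 25.3% on each of the other chromosomes, a difference that was not tested. In replicate 1 the share was 32.4% on V and at most 28.0% elsewhere, and in replicate 2 it was 30.8% on V and at most 24.9% elsewhere. Of the 20 fullest bins, 11 began on the left, 2 in the centre and 7 on the right. The first was 0.1 to 0.2 Mb with 48 peaks, then 17.9 to 18.0 Mb with 45 and 0.9 to 1.0 Mb with 44. These 3 held 10, 12 and 10 replicate 1 peaks and 9, 7 and 10 replicate 2 peaks. At the other end, 18 bins held no series-wide peak, and the same number held none in any list. The widest coverage among the 20 was in 18.0 to 18.1 Mb, where 50.8% of the bases lay under series-wide peaks.

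Most neighbours were close. The median space between consecutive series-wide peaks of V was 501 bp (quartiles 165 and 2332 bp), and 11.5% of spaces exceeded 20 kb. On IV the median was 494.5 bp with 8.66% above 20 kb, and on X it was 548 bp with 14.8%. Within V, 9.45% of spaces were above 20 kb on the left, 16.4% in the centre and 9.69% on the right.

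Joining peaks separated by at most 2 kb gave 599 clusters on V. Single peaks made up 237 of them, with a median width of 252 bp, and 33 of these (13.9%, interval 10.1 to 18.9%) were found in both replicate lists. At the other end, 57 clusters of 10 or more peaks held 760 peaks (34.1% of V). Of these clusters 48 (84.2%, interval 72.6 to 91.5%) touched peaks of both replicates, and a longer span has more room for an overlap. The replicate shares of single peaks and of large clusters are given for V only, so they are not shown to be particular to V. Their median span was 14.0 kb, of which a median of 62.1% lay under peaks. The left part held 27 such clusters, the centre 10 and the right 20. On X 22.1% of peaks lay in clusters of this size, on IV 36.4%, and on III 45.2%.

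The largest cluster by number, from 12028281 to 12046205, held 22 peaks in 17.9 kb of the centre. Its best series-wide score was 10.85, below the median best score of 20.6 among the clusters of 10 or more peaks. Its replicate scores reached 172 in replicate 1 and 310.8 in replicate 2. The median scores of V in those lists were 261.1 and 228.1. The second, from 18064287 to 18107212 on the right, was the widest on V at 42.9 kb. Its 21 peaks filled 82.8% of the span, its best score was 112.9, and a replicate peak at the ceiling lay in it in both replicates. Another 16 peaks filled 77.9% of the 25.1 kb from 18021570 to 18046656 just before it, a cluster picked after its values were seen. On the left, 21 peaks ran from 1860662 to 1892327 (31.7 kb, best score 68.7). Replicate 1 covered 89.9% of that span and replicate 2 covered 43.0%.

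A group of 3 clusters of 20 peaks each lay within 148.7 kb of the fullest 1 Mb bin. They ran from 4480564 to 4513514, from 4560259 to 4582069 and from 4606680 to 4629255. Their best series-wide scores were 39.02, 20.3 and 27.2, all within the highest 10% of V by score, which begins at 19.46. Their median scores were 6.415, 6.06 and 5.85, near the 5.92 of all series-wide peaks of V. Replicate 1 covered 93.4%, 84.1% and 68.7% of the clusters, and replicate 2 covered 77.2%, 52.8% and 20.2%. Thus all 3 were found in each replicate, less completely in replicate 2. The remaining 4 of the 10 richest clusters held 17 or 18 peaks each. They began at 20394978 (37.1 kb) and 16792780 (19.2 kb) on the right, 899433 (17.3 kb) on the left and 9633637 (16.3 kb) in the centre.

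Long stretches without peaks took up a large share of V. Counting all 3 lists, 40 stretches exceeded 100 kb and made up 27.7% of its length, against 30.6% for X, which also had 40. IV had 14 such stretches (10.3% of its length) and II 13 (11.3%), while I had 5 and III 3. All 4 stretches above 200 kb on V together measured 1.18 Mb, and 3 of them were on the left. The parts held 14, 12 and 14 stretches above 100 kb from left to right, and the longest of the centre was 199.6 kb, from 7368896 to 7568489.

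**Figure D4:**
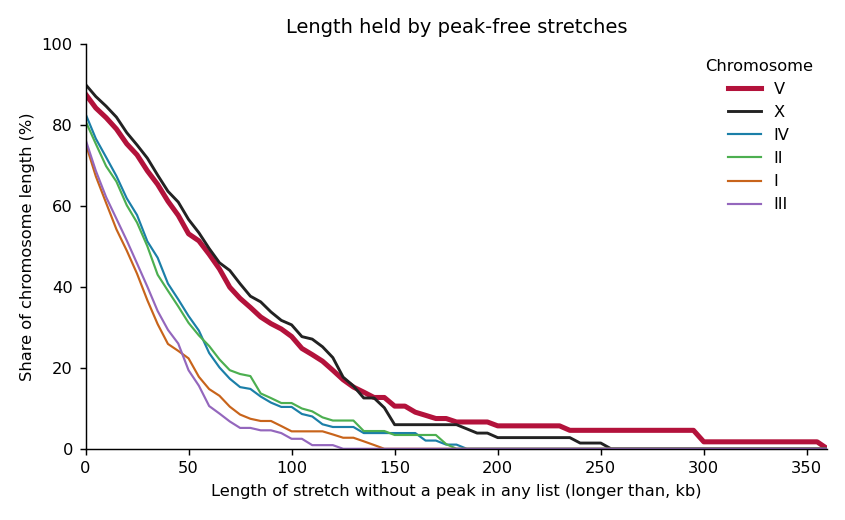
Each line gives the percent of a chromosome's length that lies in stretches without a peak in any list longer than the value on the horizontal axis (kb). V, the thick line, runs close to X up to about 150 kb, holds 27.7% of its length in stretches above 100 kb, and extends to 358.8 kb.

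The longest stretch, 358.8 kb from 364516 to 723346, had unequal flanks. The 50 kb before it held 17 series-wide peaks (best score 24.3) and the 50 kb after it 5 (best score 9.21). The third, 295.6 kb from 18132354 to 18427956, began at the end of a dense region, with 22 peaks and a best score of 112.9 in the 50 kb before it and 3 peaks with a best score of 5.86 after it. The second, 297.4 kb from 3217190 to 3514539, was separated from another of 149.7 kb by a single series-wide peak. That peak was 152 bp wide, from 3217038 to 3217189, had a score of 5.86 and was in neither replicate. With it the stretch from 3067327 to 3514539 measured 447.2 kb. It lay inside the longest peak-free stretch of each replicate list, 491.9 kb from 3066794 in replicate 1 and 496.1 kb from 3067327 in replicate 2. The fourth ran from 2136357 to 2366961 (230.6 kb), with 11 peaks before it and 14 after it within 50 kb. The others of the 10 longest began at 2740802 (178.2 kb), 6256925 (165.5 kb) and 1892651 (161.97 kb) on the left, and at 7368896 (199.6 kb) and 8631307 (155.3 kb) in the centre. Another, from 6900226 to 7056886 (156.7 kb), began on the left, crossed into the centre and was counted there. A missing peak means that the caller listed none, not that polymerase was absent.

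The 20 best-scoring series-wide peaks of V had scores from 124.1 to 198.2 and a median width of 6.58 kb, with a range of 2.95 to 17.2 kb. All 20 lay in replicate peaks at the ceiling in both replicates, and all 20 were among the best 100 of the whole list. V had 23 of those 100 peaks and 2 of the best 20, and it holds 14.7% of the whole list. The difference was not tested. A group of 5 lay from 8 to 9 Mb, and 11 to 12 Mb and 14 to 15 Mb held 3 each. The bin from 8 to 9 Mb, with 76 series-wide peaks, was among the poorer bins by number. By covered bases it reached 10.8%.

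The first by score ran from 14021023 to 14028767 (198.17), and the third (170.44, from 14092337) and the sixth (151.2, from 14267383 to 14275047) followed, all 3 inside 254.03 kb. The replicate peaks around the first measured 10.2 and 10.3 kb, and those around the third 7.88 and 7.64 kb, so both replicates placed them alike. The second, from 9081103 to 9098347 (178.72), was the widest series-wide peak of V at 17.2 kb. The only one of the 20 on the left ran from 2625439 to 2635494 (score 159.55, 10.1 kb). It formed a cluster of its own, and its replicate peaks both measured 10.9 kb. The next best of the left part, from 6038686 to 6047900, scored 106.2 and ranked 27 on V.

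In the centre, the fifth ran from 12491077 to 12496831 (152.23) and the seventh from 11176793 to 11181542 (150.65). The seventh lay beside the twentieth, from 11170531 to 11175787 (124.09), in a cluster of 5 peaks, and their starts were 6.26 kb apart, the closest of any among the 20. The eighth ran from 7135931 to 7142938 (148.5). From 8 to 9 Mb the peaks were those from 8844713 to 8855369 (146.17), 8531240 to 8537392 (138.69), 8242350 to 8248084 (136.76), 8348930 to 8354896 (131.45) and 8221214 to 8229040 (128.96). The peaks from 8844713 and 8242350 stood alone, with no other peak within 2 kb. Further members of the centre ran from 11977949 to 11987399 (141.58) and from 10004240 to 10008631 (129.47).

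On the right, the narrowest of the 20 ran from 19519992 to 19522937 (142.46), and its replicate peaks of 4.67 and 4.82 kb were narrow as well. The others there ran from 15023182 to 15029143 (137.85), 16220590 to 16225970 (135.45) and 16037787 to 16045209 (134.47). Around the last of these the replicates differed in extent, with a replicate 1 peak of 22.9 kb from 16022722 and a replicate 2 peak of 8.91 kb from 16036606. The peaks just below the limit of 20 scored 121.85, from 8886882, and 121.37, from 14459175.

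**Figure D5:**
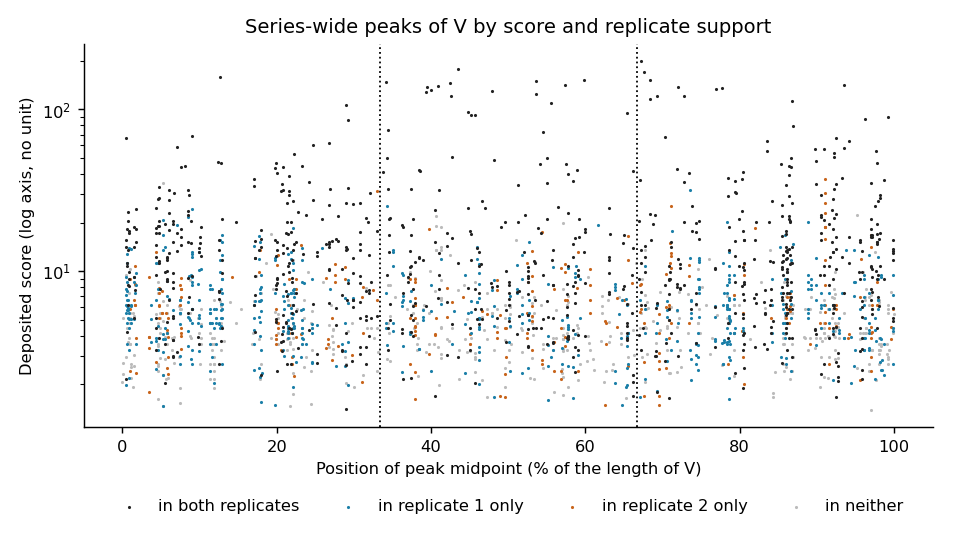
Each point is 1 of the 2226 series-wide peaks of V, placed by its midpoint (percent of the length of V) and its deposited score on a log axis, and coloured by the replicate lists that hold it. Of the 20 peaks above a score of 124, 1 lies in the left, 12 in the centre and 7 in the right part, between dotted lines.

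Width and score went together only in part. Over the 2226 series-wide peaks Spearman's rho was 0.72, a description over peaks of 1 list. The widest replicate 1 peak of V, 24.1 kb from 4487983 to 4512079, scored 950.2, and its replicate 2 partner, at 26.0 kb the widest of that list, scored 205.5. It spanned 6 series-wide peaks in replicate 1 and 9 in replicate 2. The peak from 20405297 to 20426583 measured 21.3 kb and reached the ceiling in replicate 1, and replicate 2 had 19.5 kb there with a score of 363.9. The series-wide peak in it was 16.6 kb wide, the second widest of V, with a score of 46.8. By contrast, the peaks around 8886882, 9081103 and 11977949 were each at the ceiling in both replicates, with widths of 16.2 to 18.9 kb that differed by at most 0.37 kb between replicates.

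Several wide replicate peaks lay on the right. Replicate 1 had 19.8 kb from 18084694 and 18.7 kb from 18065791, and replicate 2 had 14.3 kb from 18089410 and 14.4 kb from 18066182. On the left, replicate 1 had 18.96 kb from 6030200, and replicate 2 had 15.1 kb from 6422462 with a score of only 83.5. At 17117178 to 17134166 the widths differed by 0.078 kb, with 16.99 kb in replicate 1 and 17.07 kb in replicate 2, and the score was 1572.4 in replicate 1 and at the ceiling in replicate 2. In the centre, replicate 2 had 14.8 kb from 13162890, where replicate 1 listed 3 peaks. The series-wide list also held wide peaks of 11.7 kb from 9337338, 10.6 kb from 18070788, 10.4 kb from 18091922, 10.2 kb from 18118387 and 9.86 kb from 4957265.

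Of the 241 one-to-one pairs, 28 were at the ceiling in both replicates, 12 in replicate 1 alone and 3 in replicate 2 alone. Of the 12 pairs at the ceiling in replicate 1 alone, the lowest replicate 2 scores were 225.6, at 4855611, and 314.9, at 17566251. These pairs were picked after their values were seen, and a score at the ceiling gives no size for the difference.

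Strong replicate peaks without any partner were few. The best in replicate 1, from 15355921 to 15361497, reached the ceiling, and the second, from 15362296 to 15369329 (score 1747.2), lay right beside it. The nearest replicate 2 peak was 20667 bp away from the first. The series-wide list held 2 peaks in the first, with a best score of 31.7, and 7 in the second. The other 3 of the best 5 were on the left, from 1089115 to 1100597 (1267.2), from 1881359 to 1892650 (1265.4) and from 2687318 to 2693796 (905). In replicate 2 no unshared peak scored above 1018.4, the value of the peak from 7916538 to 7925196. The next began at 11074146 (798.6), 18993424 (728.9), 17114305 (521.2) and 11956782 (471.2). The one from 17114305 ended 417 bp before a replicate 1 peak, so it missed a partner narrowly, whereas that from 11074146 was 34413 bp from the nearest.

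Series-wide peaks of high score outside both replicates were rare, with 4 among the 223 of the highest 10%. They ran from 1101607 to 1104342 (score 35.08), 19869489 to 19869681 (22.33), 8489241 to 8489512 (21.91) and 11916336 to 11917732 (20.0), and were picked after their values were seen. The first lay 1010 bp from a replicate 1 peak. The other 3 were at least 15845 bp from any replicate peak.

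The outermost series-wide peaks of V scored below its series-wide median of 5.92. The first series-wide peak (3407 to 3572) scored 2.08, and the last (20870263 to 20870496) scored 5.44. Replicate peaks began farther in. The first was at 94550 (score 75.9) in replicate 1 and at 99637 (score 1340.9) in replicate 2. The last ended at 20851119 (score 123.5) in replicate 1 and at 20849451 (score 503.96) in replicate 2.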

How the data were processed

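Per the submitters' processing notes, BWA and the ce10 assembly were used. Per the file headers, the peak lists are in WormBase WS220 coordinates, and their source columns name MACS for the replicates and MACS v2 for the series-wide list. The sources used here give neither the calling settings nor the role of the input, and do not say how replicates were combined. The score of each peak was used as deposited, and starts and ends likewise. No coverage or read depth was used, so depth is unknown.

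Peaks were assigned to parts and bins by midpoint. Peaks overlapped when they shared at least 1 bp. Clusters joined peaks with at most 2 kb between them. Scores at or above 3100 counted as the ceiling. Shares carry 95% Wilson intervals, which cover counting error only and treat neighbouring peaks as independent. No test was run, since 2 libraries of 1 condition allow none over samples. Named were the 20 best-scoring peaks, the 10 richest clusters, the 10 widest peaks of each list, the 10 longest peak-free stretches, the 3 fullest and 3 emptiest 1 Mb bins, the 5 best unshared peaks of each replicate and the first and last peaks. Members and rules were chosen with earlier results of these data known. The gene table at hand describes another assembly and was not joined. The interval functions gave the planted answer in 10 of 10 simulated runs of 300 peaks on V. In the overlap check each planted peak had at most 1 partner, so the choice among several partners was not tried. Python 3.11.15, numpy 2.4.6, scipy 1.17.1, pandas 2.3.3 and matplotlib 3.10.9 were used.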

Additional observations from a re-analysis of the deposited data

How the results depend on the processing

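No paired analysis was possible because no result comes from a test and peaks were listed for ChIP replicates only. The causes of the shifts below were not tested, except that fewer peaks or 1 list change counts by construction. Series-wide density on V (106.7 per Mb) was 39.8 for peaks in both replicates, 55.8 for the better-scoring 50%, 10.7 for the best 10%, and 20.6 to 22.1 in single replicate lists. V stayed below the other 5 chromosomes pooled (X alone was lower in each of the 3 lists), with density ratios of 0.675 to 0.737 in single lists and covered ratios of 0.659 to 0.688, and 0.626 for the best 10%. The outer-to-centre ratio of density stayed above 1, at 1.29 to 1.49 in single lists and 1.49 for the best 10%. By covered bases this ratio was 1.22 for all series-wide peaks and only 1.03 for the best 10%. For peaks in neither replicate it was 1.13 by density (interval 0.941 to 1.35) and 0.934 by covered bases. The right-to-left ratio (1.01) had no stable direction. It was 0.994 to 1.15 in single lists, 0.930 with outer parts of 25% each, 1.19 for peaks in both replicates, 1.32 for the best 10% and 1.22 by covered bases. With 50% of the shorter peak required 34.9% of series-wide peaks were in both replicates, and by midpoint 34.9%. The share was 54.04% for the better-scoring 50%, 92.4% for the best 10%, and 49.2 to 63.7% with 1 list. With 50% of each peak required, replicate peaks were shared at 53.1% (replicate 1) and 57.1% (replicate 2), and by midpoint 63.8% for replicate 1. Clusters of 10 or more numbered 33 with joining over 1 kb, 72 over 5 kb and 11 for the better-scoring 50%. Stretches above 100 kb numbered 60 in each replicate list. The outer median score exceeded the centre by 0.39, by 0.1 with outer parts of 25%, and by 1.81 for peaks in both replicates. The share of peaks in the fullest 10% of bins was compared in settings chosen after seeing the data. It was 35.6% with bins of 50 kb (highest other chromosome 34.97%), 23.5% with 200 kb (21.2%), 28.8% with bins moved by 50 kb (26.7%), 35.97% for peaks in both replicates (33.9%), and 30.8 to 32.4% in single lists, so V was highest in each, narrowly with 50 kb.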
